A study of Mus musculus with 44 samples.

Results

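The genes described here are 10 products of the inflammatory and acute phase response: the chemokines Ccl2, Ccl7, Cxcl1 and Cxcl5, the cytokine Il6, the secreted acute phase proteins Ptx3, Saa3 and Lcn2, and the adhesion molecules Icam1 and Vcam1. They were followed through mouse calvarial osteoblast cultures on 3 types of Affymetrix array, called A, B and C. Every probe set whose annotation named 1 of these genes alone was taken, which gave 16 probe sets for the 10 genes, out of 36701 probe sets and 15964 genes in the series. Of the 16, 14 lay on array A and 2, both for Ptx3, on array B. Only probe sets brighter than the median of the array in 3 or more hybridisations were tested, which held for 13 of the 16 among the sorted samples and for 12 of the 14 on array A. Il6 (102218_at), 1 of 2 Lcn2 probe sets (160564_at) and 1 of 3 Ptx3 probe sets (164210_r_at) were too dim for it.

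Calvarial osteoblast cultures from new born mice, labelled as 7 day, carried green fluorescent protein (GFP) driven by a fragment of the type I collagen promoter, and cells were sorted by fluorescence. The day 17 groups were unsorted, GFP-positive and GFP-negative cells from pOBCol2.3GFP cultures that had received Asc acid and bGP from day 7 on (in osteoblast culture, ascorbic acid and beta-glycerophosphate, which allow matrix to form and mineralise). The day 7 groups were the same 3 kinds of cells from pOBCol3.6GFP cultures without additions. All groups were grown in DMEM with FCS, and the labels mention harvest with trypsin for 1 sorted sample only. As background, the 2.3 fragment is active in differentiated osteoblasts and the 3.6 fragment also in earlier cells of that lineage, so GFP marks a different range of cells on each day. Day, transgene and additions changed together and cannot be told apart. Each group had 3 RNA samples, from Exp100, Exp105 and Exp106 at day 17 and Exp99, Exp101 and Exp103 at day 7, and values below are listed in that order. Separate animals are named nowhere beyond the experiment names, so the spread that the p-values rest on may be partly technical.

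Ccl2 and Ccl7 are ligands of the receptor Ccr2 and draw monocytes, while Cxcl1 and Cxcl5 act on Cxcr2 and draw neutrophils. Icam1 and Vcam1 stand on the cell surface and bind leukocyte integrins, Icam1 those with the Itgb2 chain and Vcam1 the one of Itga4 and Itgb1. Il6, Saa3, Lcn2 and Ptx3 are secreted: Il6 signals through Il6st, Saa3 is a serum amyloid A made outside the liver, Lcn2 binds bacterial siderophores, and Ptx3 is a long pentraxin of innate immunity. Many of these genes are induced by interleukin 1 and tumour necrosis factor through NF-kB, in stromal cells and osteoblasts as well as in macrophages and endothelium, and stromal Vcam1 and Cxcl12 mark cells of the bone marrow that hold blood cells in place.

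RefSeq promoters (GRCm38.p6) were at hand for 6 of the 10 genes. The 250 bases before the start were searched on both strands for the NF-kB consensus and for the letters TGANTCA (AP-1), TTNNGNAAT (C/EBP) and TTCNNNGAA (STAT), since these factors are the textbook regulators of the family. The shares of all 32851 promoters with such letters in the same window were 7.25%, 6.75%, 10.2% and 7.02%. Cxcl1 held 2 NF-kB matches on opposite strands that overlap, Il6 held 1 each for NF-kB, AP-1 and C/EBP, and Icam1 1 each for C/EBP and STAT. Ptx3, Saa3 and Lcn2 held none of the 4 in this window. A match is a run of letters and not a measured site. The stretches around the matches are shown with the matched letters in capitals. They lie at chr5:90891149-90891209, chr5:30012864-30013104 and chr9:21015759-21015931, all on the plus strand.
Cxcl1: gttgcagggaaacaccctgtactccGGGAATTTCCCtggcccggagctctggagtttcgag
Il6: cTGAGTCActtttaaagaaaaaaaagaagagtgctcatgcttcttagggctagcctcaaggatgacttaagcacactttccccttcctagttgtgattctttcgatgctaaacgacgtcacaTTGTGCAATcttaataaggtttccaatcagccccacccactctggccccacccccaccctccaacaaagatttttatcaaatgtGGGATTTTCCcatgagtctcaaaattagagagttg
Icam1: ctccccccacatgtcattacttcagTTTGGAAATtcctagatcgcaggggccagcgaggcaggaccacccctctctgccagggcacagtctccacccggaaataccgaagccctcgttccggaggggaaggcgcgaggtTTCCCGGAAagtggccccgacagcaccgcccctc

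Levels are normalised intensities, on a linear scale after quantile normalisation within array type, where the median probe set of array A had 566.1. Differences are log2 of the intensity plus 32, so they understate changes of dim probe sets. Each SE is from a fit without the experiment as a block, also where an adjusted p with that block stands beside it. The 3 samples of Exp106 stood apart on array A, with a mean correlation of 0.84 with the 15 other samples, against 0.945 among those 15. Counts of calls are therefore also given without Exp106. Unsorted cells were run on array A, and only those of Exp106 also on arrays B and C, which entered no test. The osteoblast label held at day 17 by 1 marker: Ibsp, bone sialoprotein, lay between 11864 and 100227 in those groups. At day 7 Ibsp lay between 36.8 and 1903, and below the array median in all GFP-negative samples. Of 10 osteoblast markers on array A, 4 or 5 lay below the median in every sample of a day 7 group. In the day 17 groups 0 to 2 did. Macrophage and leukocyte markers (27 genes on array A) summed to 234639 to 296173 in unsorted, 28354 to 115811 in GFP-positive and 92258 to 154446 in GFP-negative cells at day 17. The highest GFP-positive sum was that of Exp106, and those of Exp100 and Exp105 were 28354 and 28404. At day 7 the sums were 25874 to 55715, 8776 to 10607 and 18627 to 49085 in the same order of fractions. Of 11 endothelial markers on array A, 8 to 10 lay below the array median in every sample of each group, Cdh5 among them in all 6 groups.

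At day 17 most of these genes were lower in GFP-positive cells than in GFP-negative cells and in the whole culture. Vcam1 and Icam1 fell. Ccl2, Ccl7, Ptx3 (by 92731_at only) and Saa3 were not called in the unpaired fit but were with the experiment as a fixed block. Ccl2, Ccl7 and Ptx3 were also called with a random block and without Exp106, whereas Saa3 was not called with a random block (adjusted p = 0.108). Neither Lcn2 probe set was called. Among 13 member probe sets tested, 4 were called lower in GFP-positive than in GFP-negative cells, 3 of Vcam1 and the 1 of Icam1, and 0 higher (limma, adjusted p under 0.05), against 1.48% of all probe sets called and 1.13% called lower. With the experiment as a block, which pairs the fractions, 8 were called, all lower, against 5.03% of all called and 3.26% called lower, and without Exp106 7 of 10 tested, against 4.98%. Leaving out 1 sample gave 2 to 6 calls, with 2 without GFP-negative or GFP-positive Exp100 or Exp105. Calls over all probe sets moved too, from 143 of 21791 without GFP-negative Exp100 to 776 of 21575 without GFP-positive Exp106, where the 6 arose. Fitting only these 2 groups gave 1 of 10, against 0.187%. Ranges of the fractions did not overlap for 7 of the 13, each time with GFP-positive cells lower, against 7.43% of all probe sets. The median log2 difference was -1.63 over these 13, against -0.01 over all, and 11 of 13 lay below 0. In bulk RNA, fewer cells of a type and less RNA per cell cannot be told apart.

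Vcam1, the surface ligand of Itga4 and Itgb1, was bright and closely matched between experiments. Its probe set 92559_at had 1132, 1372 and 1132 in unsorted, 292, 291 and 286 in GFP-positive and 1558, 1604 and 1768 in GFP-negative cells at day 17. At day 7 it had 2336, 1647 and 2183 in unsorted, 2743, 2258 and 1986 in GFP-positive and 2323, 1710 and 1771 in GFP-negative cells. The day 17 fractions stood in 3 separate bands, GFP-positive cells lowest, while the 3 fractions of day 7 overlapped. GFP-positive minus GFP-negative at day 17 was -2.38 ± 0.21 (SE, n = 3 each, adjusted p = 4e-04), a 5.20-fold fall, and it was called in all 14 alternatives tried (adjusted p up to 0.0499). It was lower in each of the 3 experiments, by -2.30, -2.34 and -2.50.

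The other Vcam1 probe sets followed. Probe set 92558_at had 1793, 2102 and 3224 in unsorted, 496, 490 and 1348 in GFP-positive and 2750, 1991 and 5321 in GFP-negative cells at day 17. GFP-positive cells lay below both other fractions, and Exp106 was the brightest in each. The difference to GFP-negative cells was -2.10 ± 0.46 (adjusted p = 0.0496, and 0.000312 with the block), and it was lost in 9 of its other settings or left-out samples, at adjusted p of up to 0.277. Probe set 92560_g_at had 1662, 1692 and 1424 in unsorted, 688, 849 and 1038 in GFP-positive and 2048, 2083 and 3334 in GFP-negative cells. Again the 3 fractions did not overlap, and the difference was -1.48 ± 0.26 (adjusted p = 0.0164). It was lost without GFP-positive Exp100 or Exp105, and when only the 2 fractions were fitted (up to 0.169).

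Icam1, the ligand of the Itgb2 integrins, had 833, 958 and 665 in unsorted, 100.5, 10.8 and 141 in GFP-positive and 766, 521 and 762 in GFP-negative cells at day 17. GFP-positive cells lay far below both others, and the value of Exp105 was close to 10, the lowest intensity in the deposited tables, so the size of the difference depends on the constant added. It was -2.83 ± 0.53 (adjusted p = 0.0221), a 7.09-fold fall, and ranged from -3.34 to -1.97 over its alternatives. It missed the threshold without any 1 of the GFP-negative samples (up to 0.114). At day 7 Icam1 had 926, 822 and 445 in unsorted, 647, 324 and 425 in GFP-positive and 517, 359 and 661 in GFP-negative cells, where the fractions overlapped. The GFP-positive cells of day 17 were the only group whose range was separate from the rest.

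**Figure D1:**
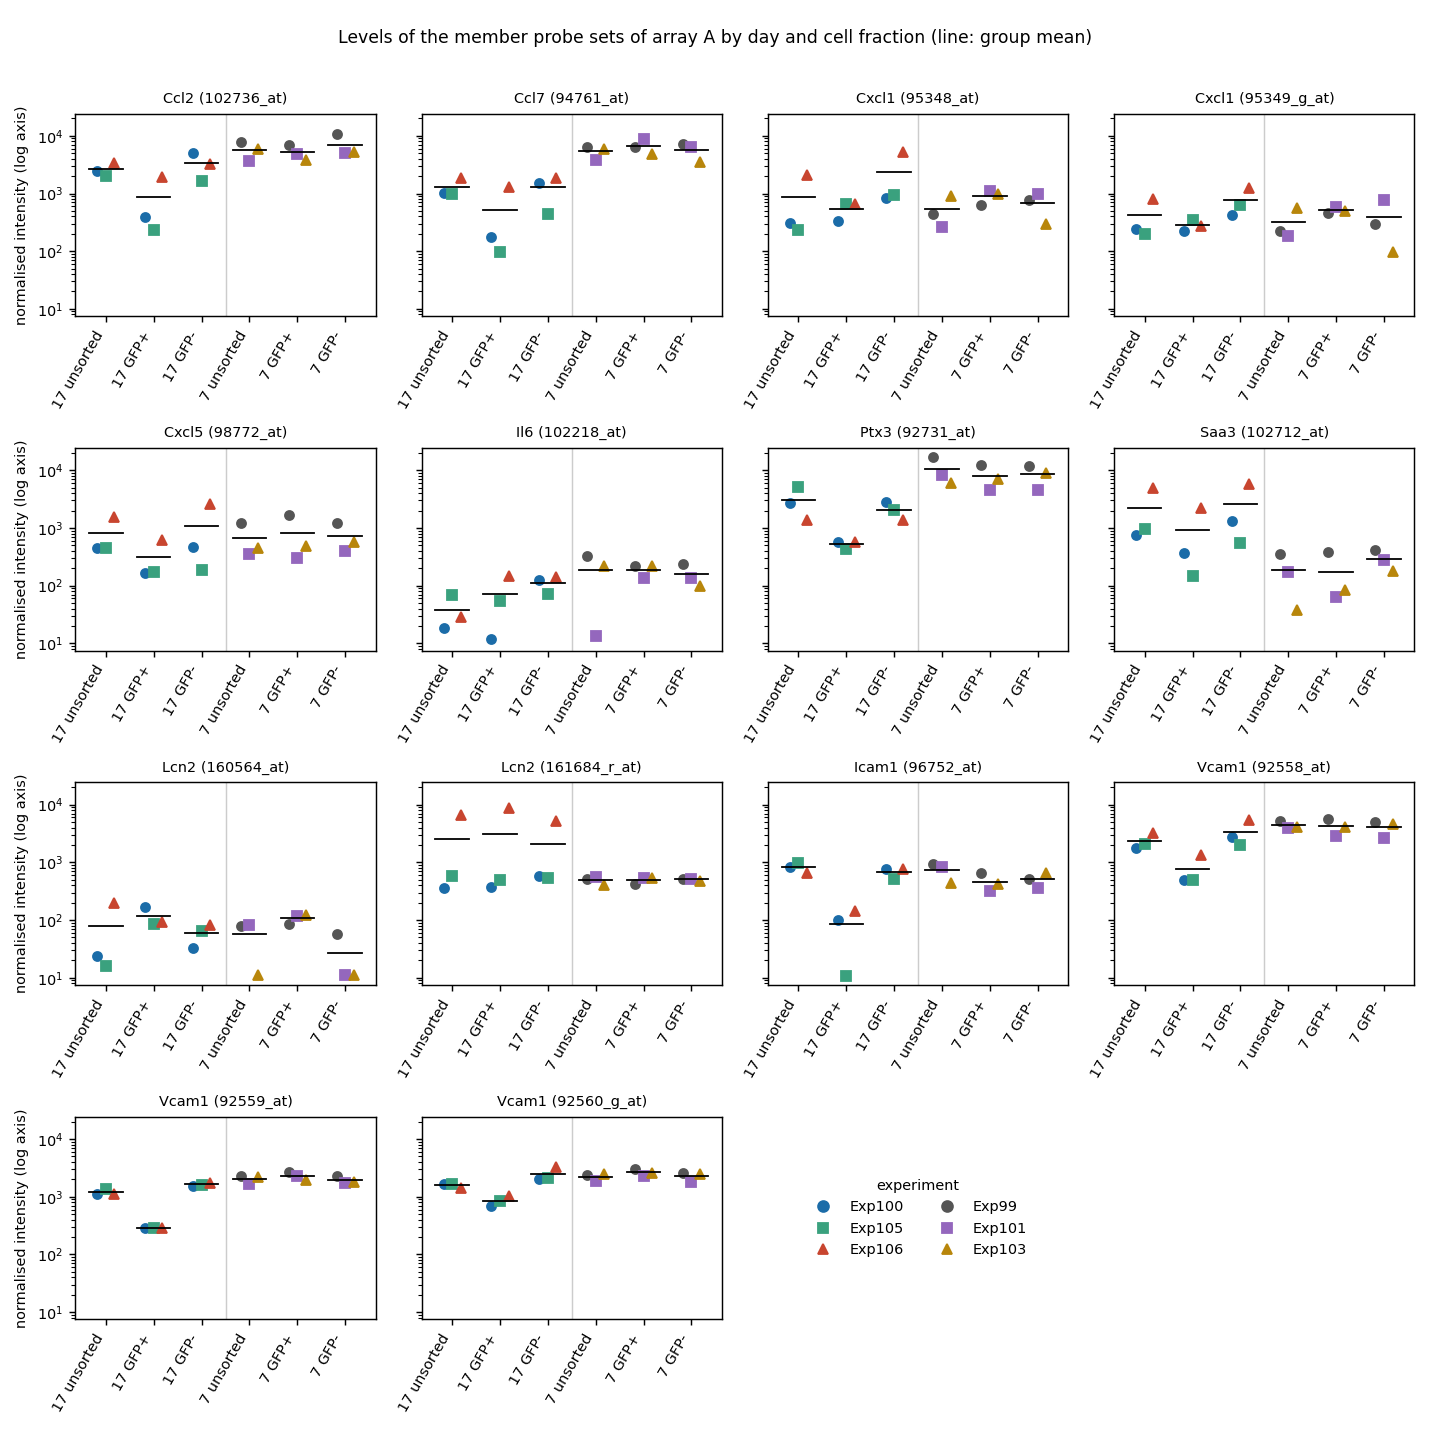
Normalised intensity (log axis) of the 14 member probe sets of array A in every sample, by group, with day 17 left of day 7 and, within a day, unsorted, GFP-positive (GFP+) and GFP-negative (GFP-) cells. Points are samples, marked by experiment, and lines are group means. Vcam1 and Icam1 drop in the GFP-positive cells of day 17 (292, 291 and 286 for Vcam1 92559_at), while Saa3 and Lcn2 161684_r_at are high in all 3 samples of Exp106.

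The chemokines that draw monocytes moved alike. Ccl2 had 2418, 2038 and 3428 in unsorted, 391, 237 and 1950 in GFP-positive and 5092, 1637 and 3226 in GFP-negative cells at day 17. GFP-positive cells of Exp100 and Exp105 were far lower than their GFP-negative partners, by -3.60 and -2.63, while in Exp106 the gap was -0.72. The fit gave -2.32 ± 0.65, which was not called (adjusted p = 0.139) but passed with the block (0.0218) and without Exp106 (-3.17, 0.0062). Ccl7 had 1041, 995 and 1864 in unsorted, 177, 96.3 and 1301 in GFP-positive and 1534, 445 and 1894 in GFP-negative cells. Its gaps between the sorted fractions were -2.91, -1.89 and -0.53, so Exp106 again had the smallest. The fit gave -1.78 ± 0.76 (adjusted p = 0.416, 0.0327 with the block, and -2.46 and 0.0228 without Exp106). The GFP-positive sample of Exp106, where the monocyte chemokines were high, was also the GFP-positive sample with the highest sum of macrophage markers (115811); the part of these cells in the result was not tested.

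The chemokines that draw neutrophils were dimmer and more scattered. Cxcl1 (95348_at) had 309, 229 and 2078 in unsorted, 332, 646 and 657 in GFP-positive and 852, 940 and 5232 in GFP-negative cells at day 17. All GFP-positive values lay under all GFP-negative ones, but the unsorted cells of Exp100 and Exp105 were as low as GFP-positive cells or lower. The difference between the sorted fractions was -1.58 ± 0.64 (adjusted p = 0.377), and -1.23 ± 0.60 (0.515) for the other Cxcl1 probe set, 95349_g_at; neither passed with the block. Cxcl5 had 446, 452 and 1538 in unsorted, 168, 173 and 608 in GFP-positive and 461, 189 and 2612 in GFP-negative cells. It was lower in GFP-positive cells in all 3 experiments, by -1.30, -0.11 and -2.05, with ranges that overlapped (-1.15 ± 0.89, adjusted p = 0.764). Cxcr2, the receptor of both, lay between 35.2 and 738 over all samples.

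The secreted acute phase proteins did not share 1 pattern. Ptx3 (92731_at) had 2659, 5119 and 1365 in unsorted, 577, 438 and 565 in GFP-positive and 2766, 2047 and 1376 in GFP-negative cells at day 17. GFP-positive cells were lowest with no overlap, at -1.86 ± 0.43 against GFP-negative cells, which missed the threshold (adjusted p = 0.0583) and passed with the block (0.0018) and without Exp106 (-2.21, 0.0262). The array B probe set of Ptx3 that was tested, 114599_at, disagreed: it had 856, 599 and 1409 in GFP-positive and 950, 713 and 896 in GFP-negative cells, a difference of 0.08 ± 0.40. The probe sets of Ptx3 thus gave different answers, and the cause was not tested.

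Saa3 had 756, 956 and 5023 in unsorted, 364, 147 and 2225 in GFP-positive and 1329, 555 and 5892 in GFP-negative cells at day 17. Within each experiment GFP-positive cells were lower than GFP-negative cells, by -1.78, -1.71 and -1.39, but the level of the experiment differed far more, so the pooled fit gave -1.63 ± 0.99 (adjusted p = 0.655) and the block 0.0365. Lcn2 (161684_r_at) had 360, 574 and 6560 in unsorted, 379, 490 and 8616 in GFP-positive and 589, 530 and 5224 in GFP-negative cells. The fractions were alike within an experiment, and the difference of 0.01 ± 1.05 was not called (adjusted p = 0.999). Exp106 alone set the spread of Lcn2, with 5224 to 8616 in its 3 samples against 360 to 589 in the 15 others. Its Saa3, at 2225 to 5892, also lay above all 15 others (37.9 to 1329), sorted and unsorted alike. Cxcl5 (608 to 2612) lay above all others in 1 of the 3 samples and Cxcl1 95348_at (657 to 5232) in 2, whereas Ccl2, Ccl7, Ptx3 and Icam1 did so in 0. The other Lcn2 probe set, 160564_at, did not show this: it had 83.1 to 199 in Exp106 and 11.2 to 170 in the 15 others, with 1 sample above all of them. So the Lcn2 level of Exp106 rests on 1 of 2 probe sets. By this dim probe set Lcn2 had 170, 85.9 and 92.9 in GFP-positive and 32.6, 64.6 and 83.1 in GFP-negative cells at day 17, and 84.4 to 122 in GFP-positive and 11.2 to 56.3 in GFP-negative cells at day 7, where the 2 lowest values come from deposited intensities of 10. GFP-positive cells were higher without overlap on both days, in 3 of 3 experiments each, though at day 17 only by 85.9 against 83.1. Of all tested probe sets 5.31% were higher without overlap at day 17 and 3.36% at day 7. With no filter the differences were 0.68 ± 0.37 at day 17 (adjusted p = 0.656) and 1.33 ± 0.37 at day 7 (1), neither called.

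Il6, the cytokine of the set, was dim everywhere. It had 18.1, 68.4 and 28.8 in unsorted, 12, 54.9 and 146 in GFP-positive and 125, 71.2 and 139 in GFP-negative cells at day 17. At day 7 it had 327, 13.5 and 220, 217, 136 and 217, and 238, 134 and 99.7 in the same fractions. All groups overlapped their neighbours in level. It was left out of the tests, and with no filter its difference between GFP-positive and GFP-negative cells was -0.67 ± 0.49 at day 17 (adjusted p = 0.795 over 36701 probe sets). At this signal a difference was not detectable.

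**Figure D2:**
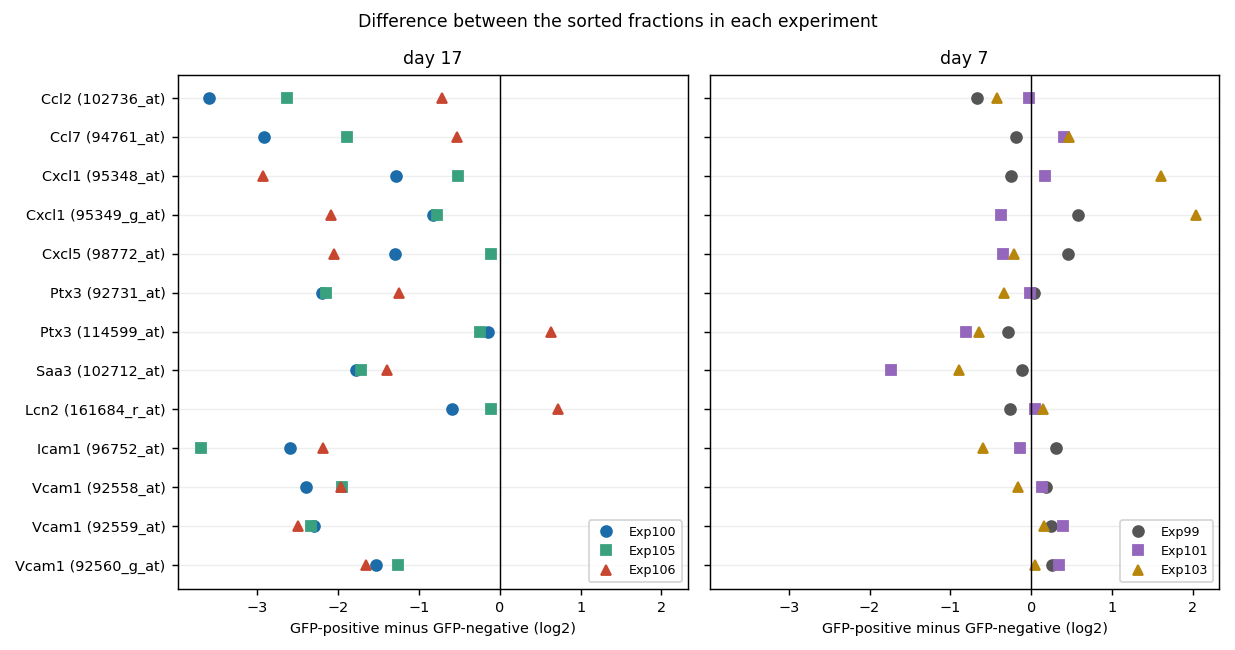
Log2 difference between GFP-positive and GFP-negative cells of the same experiment, for the 13 member probe sets tested among sorted samples, at day 17 (left) and day 7 (right). Each point is 1 experiment. All 3 points lie left of 0 at day 17 for 11 of the 13 probe sets, and Exp106 lies nearest to 0 for Ccl2 (-0.72) and Ccl7 (-0.53).

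At day 7 no member probe set was called between the fractions. Ccl2 had 7665, 3667 and 5986 in unsorted, 6840, 4928 and 3876 in GFP-positive and 10874, 5036 and 5210 in GFP-negative cells, and Ptx3 (92731_at) had 16868, 8134 and 5968, 12333, 4459 and 7055, and 12089, 4519 and 8960 in the same fractions. Ccl2, and Ptx3 by this probe set, were thus bright in cells with and without GFP. The array B probe set of Ptx3, 114599_at, had 880, 450 and 889 in GFP-positive and 1086, 812 and 1416 in GFP-negative cells. The median of array B was 846.9. Of 13 probe sets 0 were called between GFP-positive and GFP-negative cells, against 0% of all; at an unadjusted p under 0.05 the counts were 0 of the 13 and 327 of all 22099, or 1.48%. Differences ran from -0.91 (Saa3) to 0.75 (Cxcl1 95349_g_at), with a median of -0.02, and the ranges of the fractions overlapped for all 13, while of all probe sets 3.54% were lower and 3.36% higher without overlap. With the block 0 were called too. The SEs were 0.21 to 1.05, so sizeable differences of most members were not detectable here. The macrophage marker Lyz2 had 463 to 813 in GFP-positive and 4110 to 11265 in GFP-negative cells of these samples (-3.42 ± 0.52, adjusted p = 0.347).

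The gap between the sorted fractions was larger at day 17 than at day 7 for Vcam1 (92559_at), by -2.64 ± 0.29 (adjusted p = 0.0108). This was the 1 member probe set of 13 called for the difference of the 2 gaps, against 0.253% of all. The call was lost without GFP-negative Exp100 (0.0507), where 2 of all 21791 probe sets were called. Without GFP-positive Exp106 2 member probe sets were called, against 171 of all 21575. With the block 4 were called, against 1.14% of all: the 3 of Vcam1 and Ptx3 92731_at (-1.75 ± 0.60, 0.0294). Without Exp106 3 were called, all of Vcam1, against 1.55%. Icam1 had -2.68 ± 0.75 (adjusted p = 0.338, 0.0868 with the block), which was not called in either fit but passed with the experiment as a random block (0.0213), where 5 of 13 member probe sets were called, against 1.5% of all.

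At day 17 unsorted cells had more Icam1, Ptx3 (92731_at), Ccl2 and Vcam1 than GFP-positive cells. No member was called between unsorted and GFP-negative cells. These 2 comparisons and the one between sorted fractions share samples and are not independent. Against GFP-positive cells, 6 of 12 probe sets of array A were called, all higher in unsorted cells, against 7.62% of all called and 5.49% called higher. They belong to 4 genes: Icam1 (3.08 ± 0.47, adjusted p = 0.000947), Ptx3 (2.27 ± 0.51, 0.0123), Ccl2 (2.09 ± 0.59, 0.0421) and Vcam1 (1.95 ± 0.20, 1.69 ± 0.42 and 0.88 ± 0.24 for 92559_at, 92558_at and 92560_g_at, adjusted p = 4.88e-05, 0.0226 and 0.0325). With the block Ccl7 (1.96 ± 0.68, 0.00602), Cxcl5 (1.27 ± 0.86, 0.0147) and Saa3 (1.54 ± 1.02, 0.0133) passed as well, 9 in all, but so did 23.1% of all probe sets. Without Exp106 7 of 11 were called, against 21.6%, Ccl7 being the added one. Both Cxcl1 probe sets and Lcn2 stayed near 0, at 0.05 ± 0.77, 0.29 ± 0.64 and -0.08 ± 1.11. When only the 2 groups were fitted, 0 of 10 were called, against 0.216% of all. Leaving out 1 sample gave 2 to 7 calls, the lowest without GFP-positive Exp105, and 3 without GFP-positive Exp100 or unsorted Exp105. Ccl2 was called in 7 of its 14 alternatives, with adjusted p of up to 0.273 in the others. By the array B probe set of Ptx3, 114599_at, unsorted cells had 1360 and GFP-positive cells 1409 in Exp106. Unsorted cells of the other experiments were not run on array B.

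Against GFP-negative cells, 0 of 12 were called at day 17, against 0.0134% of all, that is 1 of 7455; at an unadjusted p under 0.05 there were 2 of the 12 and 524 of all, or 7.03%, and with the block 0 of the 12, against 0.617%. The 2 were Vcam1 92559_at (-0.43 ± 0.20) and 92560_g_at (-0.60 ± 0.24), both lower in unsorted cells, with ranges that did not overlap, against 4.56% of all. Other differences ran from -1.53 ± 0.77 (Cxcl1 95348_at) to 0.41 ± 0.51 (Ptx3). The SEs of the chemokines and acute phase genes were 0.51 to 1.11, so sizeable differences either way were not detectable here. No member was called higher in unsorted cells than in both sorted fractions. At day 7, unsorted cells had 0 of 12 called against GFP-positive cells (0.0402% of all) and 0 of 12 against GFP-negative cells (0% of all), and 0 of the 12 had an unadjusted p under 0.05 in either, against 1.44% and 0.335% of all.

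**Figure D3:**
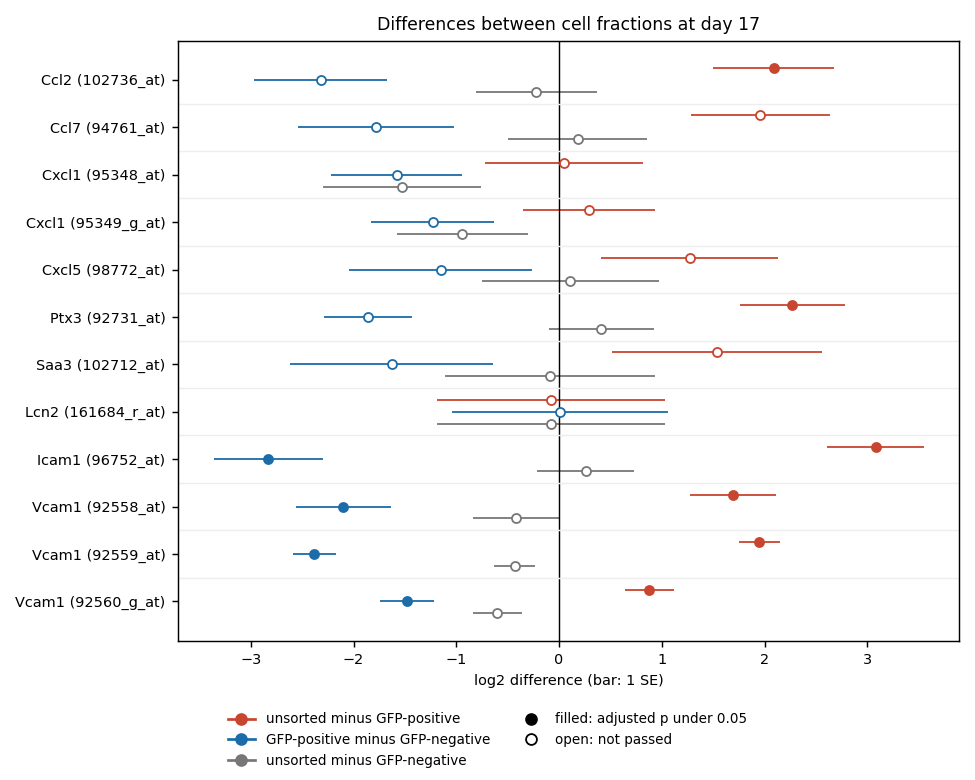
Fitted log2 differences between cell fractions at day 17, with 1 SE, for the 12 member probe sets tested on array A. Filled points passed an adjusted p under 0.05. Unsorted minus GFP-positive (red) lies right of 0 for Icam1 (3.08), Ptx3, Ccl2 and Vcam1, GFP-positive minus GFP-negative (blue) lies left of 0 for them, and unsorted minus GFP-negative (grey) passed for none of the 12.

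Between the days, the monocyte chemokines, Ptx3 by its array A probe set and both adhesion molecules were lower at day 17 in GFP-positive cells. There 7 of 13 probe sets were called, all lower at day 17 and from 5 genes, against 5.45% of all called and 3.55% called lower. Ccl7 had 177, 96.3 and 1301 at day 17, against 6283, 8662 and 4901 at day 7, with no overlap and a difference of -4.30 ± 0.76 (adjusted p = 0.00727), a 19.6-fold fall. Ptx3 (92731_at) had 577, 438 and 565 at day 17, against 12333, 4459 and 7055 at day 7, a difference of -3.72 ± 0.43 (0.000575). The array B probe set of Ptx3, 114599_at, had 856, 599 and 1409 at day 17, against 880, 450 and 889 at day 7, an overlap with 0.33 ± 0.40 (0.689). The differences were -3.07 ± 0.65 for Ccl2 (0.0191), -2.27 ± 0.53 for Icam1 (0.0304) and -2.86 ± 0.21 for Vcam1 92559_at (4.27e-05). The other Vcam1 probe sets differed by -2.50 ± 0.46 (92558_at, 0.00896) and -1.59 ± 0.26 (92560_g_at, 0.00501). Without Exp106 7 of 10 were called, against 13.1%. Leaving out 1 sample gave 4 to 7 calls, the 4 without GFP-positive Exp99. Ccl2 lost its call without any 1 of GFP-positive Exp99, Exp100, Exp101 and Exp105 or with only these groups fitted (up to 0.0859), and Icam1 without any 1 of GFP-positive Exp99, Exp100, Exp101, Exp103 and Exp105 and on the deposited scale (up to 0.138). The block for experiment cannot be fitted between days, since each experiment belongs to 1 day. The macrophage marker sums of the same cells were 28354 to 115811 at day 17, against 8776 to 10607 at day 7, and 9 of 22 tested markers rose and 0 fell. Of the fibroblast and progenitor markers 8 of 17 fell and 0 rose (median -1.36), and of the osteoblast markers 7 of 10 rose and 0 fell (median 4.2), against a median of -0.07 over all genes. The part of these markers in the result was not tested.

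In GFP-negative cells 0 of 13 were called between the days, against 0.538% of all, and 3 of the 13 had an unadjusted p under 0.05, against 2510 of all 22099, or 11.4%. Ccl7 had 1534, 445 and 1894 at day 17, against 7179, 6516 and 3532 at day 7, with no overlap (-2.29 ± 0.76, adjusted p = 0.269). It was called without Exp106 (-2.70, 0.015), as 1 of 10, against 2.84% of all. Ptx3 (92731_at) had 2766, 2047 and 1376 at day 17, against 12089, 4519 and 8960 at day 7 (-1.97 ± 0.43, 0.0716). Its array B probe set, 114599_at, overlapped between the days, with -0.34 ± 0.4 (0.79). Saa3 was higher in every day 17 sample, 1329, 555 and 5892, against 413, 280 and 181 at day 7 (2.44 ± 0.99, 0.372). Vcam1 92559_at and Icam1 changed little, by -0.22 ± 0.21 (0.73) and 0.41 ± 0.53 (0.809).

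In unsorted cells 2 of 12 were called, both lower at day 17, against 5.71% of all called and 2.67% called lower. Ptx3 had 2659, 5119 and 1365 at day 17, against 16868, 8134 and 5968 at day 7 (-1.81 ± 0.51, adjusted p = 0.0478), and Vcam1 92559_at had 1132, 1372 and 1132, against 2336, 1647 and 2183 (-0.74 ± 0.20, 0.0409). Both sit near the threshold: with 1 sample left out the count was 0 without any 1 of unsorted Exp99, Exp100, Exp103 and Exp106 and 1 without unsorted Exp101, Ptx3 was lost without Exp106 (-1.33, 0.0971), and Vcam1 92559_at with the experiment as a random block (0.0569). Without Exp106 3 of 11 were called, against 13.2%: Vcam1 92559_at, Vcam1 92558_at (-1.16, 0.0192) and Ccl7 (-2.35, 0.00447). Saa3 had 756, 956 and 5023 at day 17, against 357, 170 and 37.9 at day 7. The day 17 values lay above all day 7 values, but 3.16 ± 1.02 was not called (0.0851), nor was it without Exp106 (2.37, 0.0553). It passed only with the experiment as a random block (0.0328). Lcn2 161684_r_at, by contrast, overlapped between the days, at 360, 574 and 6560 against 522, 558 and 411.

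**Figure D4:**
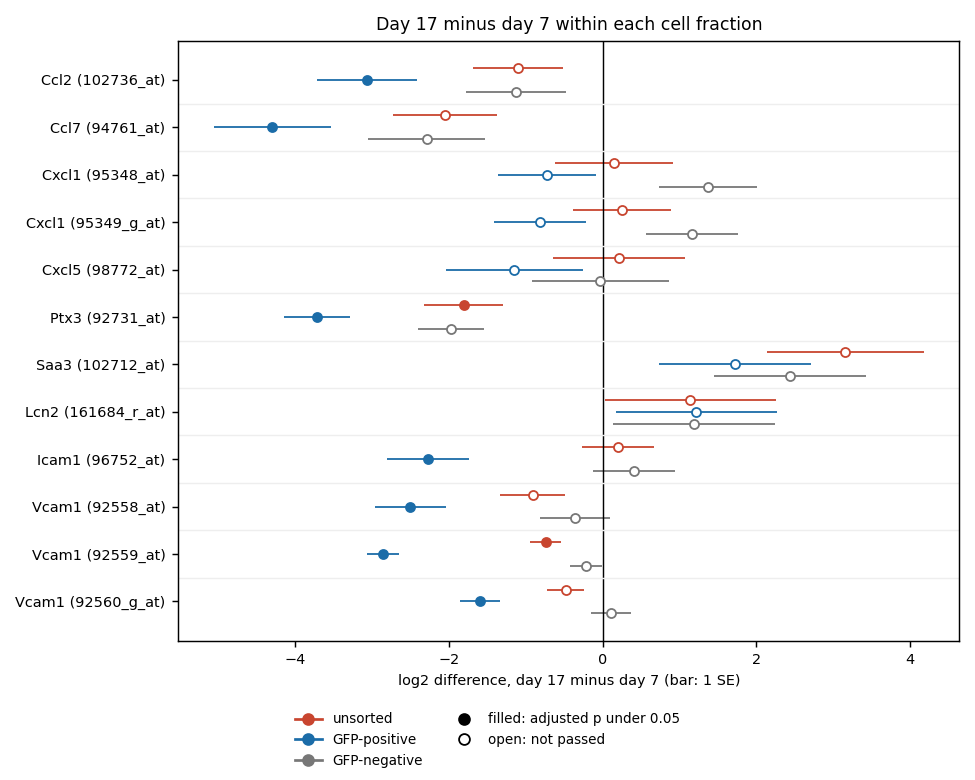
Fitted log2 difference between day 17 and day 7 within unsorted (red), GFP-positive (blue) and GFP-negative (grey) cells, with 1 SE, for the 12 member probe sets tested on array A. Filled points passed an adjusted p under 0.05. Among these 3 fractions GFP-positive cells fall furthest for Ccl7 (-4.30), Ptx3, Ccl2, Icam1 and Vcam1, while Saa3 lies right of 0 in all 3 fractions.

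Ordered by mean log2 level, Vcam1 92559_at ran from GFP-positive, unsorted and GFP-negative cells of day 17 upward to the 3 day 7 fractions; only the steps among the 3 day 17 groups exceeded their spread. For Ccl2 the order from the lowest was GFP-positive, unsorted and GFP-negative cells of day 17, then GFP-positive, unsorted and GFP-negative cells of day 7. There only the lowest step was free of overlap. Ccl7 had its break between the 3 groups of day 17 and the 3 of day 7, and Ptx3 (92731_at) between GFP-positive cells of day 17 and the rest. For Cxcl1, Cxcl5, Saa3 and Lcn2 161684_r_at every group overlapped its neighbours.

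Other genes of the pathway were compared between the same sorted fractions at day 17, where 1.48% of all probe sets were called without and 5.03% with the block. Of 9 tested genes among other chemokines 1 was lower in GFP-positive cells and 0 higher: Cxcl12, which holds blood stem cells in marrow, at 282 to 854 in GFP-positive and 2885 to 6375 in GFP-negative cells (-3.21 ± 0.52, adjusted p = 0.00972). The median of these 9 was -1.24, against -0.01 over all 11680 genes. With the block 3 were lower, Cxcl14 (-1.30 ± 0.58, 0.0324) and Cx3cl1 (-1.24 ± 0.32, 0.0115) being added. Of 33 genes of NF-kB and interleukin signalling 1 was lower, Relb, an NF-kB subunit (-1.48 ± 0.31, 0.0378), and the median was -0.33. With the block 3 were lower, also Osmr (-1.33 ± 0.52, 0.00374) and Cebpb (-0.70 ± 0.56, 0.0386), and 1 higher, Lifr (0.78 ± 0.29, 0.0271). Nfkbia, the inhibitor that NF-kB itself induces, had -0.37 ± 0.21 (0.624), and the interleukin 1 receptor Il1r1 -0.42 ± 0.41 (0.844). Il1b lay at 32.6 to 250 and Tnf at 88.7 to 346 in the day 17 samples, below the median of the array. Of 15 other cytokines and enzymes 2 were lower, Il33 (-2.27 ± 0.39, 0.012) and Ptges (-1.14 ± 0.22, 0.0282, named after its value was seen), and 1 higher, the prostacyclin synthase Ptgis (2.05 ± 0.27, 0.00225); the block added Mmp3 as lower (-1.87 ± 0.85, 0.0179). Of 9 other adhesion genes 1 was higher, Jam2 (2.22 ± 0.37, 0.0101), and 0 lower, but with the block 2 were higher and 3 lower: Ncam1 (1.07 ± 0.41, 0.0139) was added to those higher, and Alcam (-1.96 ± 0.57, 0.0324), Cd34 (-1.67 ± 0.41, 0.0333) and Vcan (-1.74 ± 0.59, 0.0137) were lower. Of 9 other acute phase genes and 7 receptors of the members 0 were called, and with the block 1 of each was lower, Lbp (-1.17 ± 0.44, 0.00513) and Il6st, the signal chain for Il6 (-1.30 ± 0.35, 0.000675). The genes that passed only with the block were named after their values were seen. Their SEs are from the fit without the block and their adjusted p-values from the fit with it.

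Markers of some cell types also differed between the fractions at day 17. Between the sorted fractions 0 of 3 tested granulocyte and 0 of 7 tested endothelial markers were called. In GFP-positive against GFP-negative cells at day 17, 8 of 17 tested fibroblast and progenitor markers were lower and 0 higher, among them Sfrp2 (-3.37 ± 0.42, adjusted p = 0.0018), a secreted Wnt modulator, and Aspn (-2.75 ± 0.45, 0.00818), a matrix proteoglycan. Their sums on array A were 120269 to 152600 in GFP-positive and 216447 to 279906 in GFP-negative cells. Of 22 macrophage markers 1 was lower, Coro1a (-2.21 ± 0.43, 0.0249), and of 10 osteoblast markers 3 were higher, led by Ptprz1 (4.23 ± 0.47, 0.00111) and Phex (4.16 ± 0.46, 4e-04). Median differences were -1.67 for the fibroblast, -1.48 for the macrophage and 1.78 for the osteoblast markers, against -0.01 over all genes. The macrophage markers Lyz2 (-1.58 ± 0.52) and Csf1r (-1.5 ± 0.5) were not called. Of all probe sets 1.13% were called lower and 0.353% higher. With the block 13 fibroblast markers and 3 macrophage markers were lower, Lcp1 (-1.55 ± 0.37, 0.0359) and Cd52 (-1.26 ± 0.48, 0.0374) being added, and 6 osteoblast markers were higher. The shares of all probe sets with the block were 3.26% lower and 1.76% higher. In unsorted against GFP-positive cells at day 17, 18 of 24 macrophage markers and 8 of 16 fibroblast markers were higher and 0 lower. The share of all probe sets called higher there was 5.49%. With the block 24 and 13 were higher, against 11.9% of all. Csf1r, the receptor of the macrophage growth factor, differed by 2.81 ± 0.50 (0.00279) and Sfrp2 by 3.42 ± 0.42 (0.00021). In unsorted against GFP-negative cells 0 of either list were called, against 0.0134% of all probe sets. The median there was 1.28 for the macrophage and -0.13 for the fibroblast markers, against -0.03 over all genes. The part of fibroblast-like cells or macrophages in the values of the 10 genes was not tested.

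By the rule for likeness, the mean standardised profile of 9 members (1 probe set each, without Il6) was set against 5638 other genes of array A over 18 samples. The 5 most alike were Cyp1b1 (Pearson r = 0.935), Nedd4l (0.924), Ctdsp2 (0.911), Ebf2 (0.894) and Hmox1 (0.890). The samples form 6 groups and share 6 experiments, so these values describe group and experiment levels and are given with no p. The 9 members did not share 1 profile. Over the same samples r was 0.93 for Ccl2 with Vcam1, -0.05 for Ccl2 with Saa3, -0.41 for Ptx3 with Saa3 and -0.47 for Ptx3 with Lcn2. The 5 genes were thus alike to a mean of unlike patterns, not to each member.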

How the data were processed

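RNA from 18 samples was measured on 44 Affymetrix arrays, 18 of type A and 13 each of B and C. The values deposited by the authors are linear intensities, 1 per probe set and array, as whole numbers from 10 up; their summarisation and scaling are not given in the sources used here. Array medians as deposited were 369 to 748 on A, 731 to 964 on B and 495 to 815 on C. Gene names came from the platform annotation: of 36701 probe sets 29131 name 1 gene, 724 several and 6846 none.

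Intensities plus 32 were log2 transformed and quantile normalised within array type; printed levels are 2 to that power minus 32. Probe sets above the array median on at least 3 arrays were fitted with limma 3.58.1 (lmFit, eBayes with trend; R 4.3.3, statmod 1.5.0), 22099 over the 12 sorted samples and 7455 over the 18 samples of array A, all groups sharing 1 estimate of spread, with Benjamini-Hochberg adjustment over all of them. The scripts were tested on simulated data. Groups and experiment numbers came from the sample titles. Fractions of 1 experiment deviated together on array A: the correlation of GFP-positive and GFP-negative deviations was 0.26 to 0.69 in the 6 experiments, so the experiment pairs them, while unsorted cells of Exp101 and Exp103 had -0.25 to -0.03 with the sorted fractions. Values with the experiment as a block are printed beside member results whose call they change, and for the gene lists at day 17. The named genes are the 10 members, the 2 genes of each list with the largest change that passed, and a few set markers; the members and lists were chosen with earlier results of these data known. Alternatives were other constants, no filter, values as deposited, fewer groups, the block and left-out samples. The number of arrays limits the precision.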

Additional observations from a re-analysis of the deposited data

Results flagged for a closer look

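The difference between GFP-positive and GFP-negative cells was not the same on both days for Vcam1 (92559_at). It was -2.38 ± 0.21 at day 17 and 0.26 ± 0.21 at day 7, and the test of the difference gave -2.64 ± 0.29 (limma, adjusted p = 0.0108). The day 17 values were below 0 in 3 of 3 experiments and the day 7 values above 0 in 3 of 3. Day, transgene and additions cannot be told apart.

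For Vcam1 (92560_g_at), unsorted minus GFP-positive cells had opposite signs on the 2 days in every experiment. The differences were 1.23, 0.97 and 0.44 in Exp100, Exp105 and Exp106 at day 17, a mean of 0.88, and -0.37, -0.24 and -0.09 in Exp99, Exp101 and Exp103 at day 7. The fitted day 7 difference was -0.23 ± 0.24, which was not called. The other Vcam1 probe sets did not show opposite signs in every experiment. At day 7 they had -0.12, 0.44 and -0.03 (92558_at) and -0.23, -0.45 and 0.13 (92559_at) in Exp99, Exp101 and Exp103. Probe set 92560_g_at was found by looking for such signs among all member probe sets of array A. Its change between days was not tested.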

How the results depend on the processing

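Counts of called member probe sets moved by over 1.5 times as follows. With the experiment as a fixed block, which pairs the fractions of 1 experiment, GFP-positive against GFP-negative cells gave 8 calls at day 17 in place of 4. The share of all probe sets called there rose as well, from 1.48% to 5.03%. The change of this gap between days gave 4 in place of 1, against 1.14% of all in place of 0.253%. With a random block the same comparisons gave 7 and 5, against 5.96% and 1.5% of all. Without Exp106 the same counts were 7 and 3, and day 17 against day 7 in GFP-negative cells gave 1 in place of 0. With only the groups compared in the fit, GFP-positive against GFP-negative cells at day 17 gave 1, unsorted against GFP-positive cells 0 in place of 6, and unsorted cells between days 1 in place of 2; this last count was 0 with no filter and 0 on the deposited scale. That setting also has fewer samples behind the spread, and the other causes were not tested. Leaving out 1 sample gave 2 to 6 calls between sorted fractions at day 17, 0 to 2 for the change of the gap, 4 to 7 for GFP-positive cells between days, 2 to 7 for unsorted against GFP-positive cells at day 17 and 0 to 2 for unsorted cells between days; the other 5 comparisons stayed at 0. In these fits, calls over all probe sets ran from 143 of 21791 to 776 of 21575 between sorted fractions at day 17. For the change of the gap they ran from 2 of 21791 to 171 of 21575. No such totals are given here for the other comparisons. Values of single members under alternatives were counted only where at least 1 setting of a comparison called the member. Among them 395 kept their side of the threshold, 34 gained a call, 66 lost one and 0 changed sign. Probe sets called in no setting, such as those of Cxcl1 and Lcn2, were not counted, so the 0 does not cover them. The fixed block was not run between days. Dim probe sets (Il6, 1 of Lcn2, 1 of Ptx3) limit what could be seen.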
